A study of Saccharomyces cerevisiae with 24 samples.

Results

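The genes RPL1A to RPL34B encode proteins of the large (60S) subunit of the yeast cytosolic ribosome. They were followed here as barcoded high-copy plasmids in a pooled competition under salt stress. The members were the 60 genes with these names, taken by systematic name out of 4817 genes in the count table. The 4 diploid strains of Saccharomyces cerevisiae carried the MoBY 2.0 library, in which each 2-micron plasmid holds a DNA barcode and 1 S288C gene between its native flanks. BY4743 is a laboratory strain, BC187 came from a vineyard, NCYC3290 from West Africa and YPS128 from a North American oak. All cultures grew in rich YPD medium with 0.7 M NaCl and 200 mg/L G418, the drug that selects for the plasmid, so a salt-free control is not part of these data. Barcodes were sequenced before growth (Gen0) and after 10 generations (Gen10) in 3 biological replicates, which gave 24 libraries in 8 groups. The study describes BY4743 and BC187 as salt-tolerant and NCYC3290 and YPS128 as salt-sensitive, and it cites earlier work in which BY4743 held more copies of the plasmid than the other three. Strain and copy number cannot be told apart where BY4743 is compared with another strain.

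Ribosomal proteins are made in matched amounts and join ribosomal RNA in the nucleolus, nucleus and cytoplasm in a fixed order. Yeast duplicated its genome long ago, and most RPL genes remain as a pair of paralogs, called A and B, whose proteins are identical or nearly so. Most such genes are driven by the factor Rap1, and many hold an intron, which is rare among yeast genes. Surplus ribosomal protein that finds no partner is degraded by the ubiquitin-proteasome system. A plasmid that slows its host, or that the host keeps at a low copy number, loses its share of the pool, so a fall of a barcode was called deleterious and a rise beneficial. Both were judged on reads scaled to a library total in that strain, a scale on which the median barcode could itself fall.

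Of the 60 members, 56 had a row in the table. The genes RPL2B, RPL4B, RPL5 and RPL11A had none and were not analysed here. Another 4 (RPL12A, RPL22A, RPL26A and RPL33B) had 0 reads in every library, and 4 (RPL11B, RPL20B, RPL27B and RPL34B) never exceeded 12 reads. The remaining 48 passed the filter on low counts in every strain. They comprised 7 of the 8 single-copy genes and 41 of the 52 paired genes, among them both members of 16 pairs. Each of the 48 had at least 50 reads in every Gen0 library, so none passed through its Gen10 level.

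Because each plasmid carries its own flanking sequence, paralogs of 1 pair differ mainly outside the protein. Over 15 of the pairs, coding sequences were between 86.69% and 99.39% identical in a global alignment, and the encoded proteins between 89.95% and 100%. The 300 bases that end 100 bases before the start codon were between 45.11% and 52.16% identical. These windows are shown for RPL13 and RPL15, pairs whose A and B barcodes diverged during the competition, from the RefSeq sequence of S288C (R64). Capitals mark a match to CCNTACA, the core of the Rap1 site, on either strand. The windows lie at chrIV:308024-308323 (RPL13A, plus strand), chrXIII:551308-551607 (RPL13B, minus strand), chrXII:202691-202990 (RPL15A, minus strand) and chrXIII:510449-510748 (RPL15B, minus strand).
RPL13A: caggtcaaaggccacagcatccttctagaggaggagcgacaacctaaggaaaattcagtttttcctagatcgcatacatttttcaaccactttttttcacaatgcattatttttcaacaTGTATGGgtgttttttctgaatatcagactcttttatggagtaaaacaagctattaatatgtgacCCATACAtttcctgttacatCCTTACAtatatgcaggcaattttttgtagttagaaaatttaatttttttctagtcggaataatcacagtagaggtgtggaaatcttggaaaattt
RPL13B: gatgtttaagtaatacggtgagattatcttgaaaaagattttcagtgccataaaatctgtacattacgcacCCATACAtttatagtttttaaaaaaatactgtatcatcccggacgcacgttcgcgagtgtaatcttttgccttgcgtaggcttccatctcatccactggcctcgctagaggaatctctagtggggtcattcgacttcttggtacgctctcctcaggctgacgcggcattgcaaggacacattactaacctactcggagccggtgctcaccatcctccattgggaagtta
RPL15A: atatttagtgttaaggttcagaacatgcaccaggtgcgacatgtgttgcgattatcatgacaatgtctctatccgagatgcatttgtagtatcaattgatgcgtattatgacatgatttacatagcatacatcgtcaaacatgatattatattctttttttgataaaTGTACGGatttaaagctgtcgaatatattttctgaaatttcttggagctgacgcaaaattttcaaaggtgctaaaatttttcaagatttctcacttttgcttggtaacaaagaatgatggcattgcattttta
RPL15B: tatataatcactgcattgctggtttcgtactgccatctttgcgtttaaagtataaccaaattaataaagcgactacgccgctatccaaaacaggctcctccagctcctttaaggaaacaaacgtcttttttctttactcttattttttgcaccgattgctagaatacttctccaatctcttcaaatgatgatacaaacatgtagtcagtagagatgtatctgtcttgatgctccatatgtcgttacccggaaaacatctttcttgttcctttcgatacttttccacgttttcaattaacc
The window of RPL13A held 3 matches and that of RPL13B 1, and the window of RPL15A held 1 and that of RPL15B none. Neither RPL14A nor RPL14B, the pair with the largest divergence, held one in this window. A match was found in 41.7% of the 60 RPL windows and in 10.9% of windows of the same length before 6001 protein-coding genes. A match is a description of the letters and not a measured binding site.

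RPL29 encodes the smallest protein of those followed here, and its coding sequence has 180 bases (chrVI:223258-223437, minus strand). It is shown because its barcode fell in all 4 strains.
RPL29: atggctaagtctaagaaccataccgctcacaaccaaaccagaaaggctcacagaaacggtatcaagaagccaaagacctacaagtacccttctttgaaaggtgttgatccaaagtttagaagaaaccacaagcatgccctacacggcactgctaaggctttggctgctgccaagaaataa

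Libraries held between 4615027 and 30699608 reads. A few barcodes took most reads in the salt-sensitive strains at Gen10, so reads were scaled to the total over the rows that exceeded 50000 reads in no library, and values per 1000000 reads of that total are called normalised reads. At Gen10 this total was 501261 to 1868859 for NCYC3290 and 1679115 to 5010411 for YPS128, against at least 11962164 in BY4743 and 13877769 in BC187. The median count of the RPL barcodes at Gen10 was 3038 reads in BY4743, 2698 in BC187, 131.5 in YPS128 and 16.5 in NCYC3290. Replicates spread with a biological coefficient of variation of 0.855 (NCYC3290), 0.539 (YPS128), 0.126 (BY4743) and 0.11 (BC187), which sets how small a change could be called. In counts simulated with the spread of NCYC3290, 0% of changes of 2 on the log2 scale were recovered and 65% of changes of 5. With the spread of YPS128, 45% were recovered at 2 and 97.5% at 3. In BY4743 and BC187, 100% were recovered at 1. The simulation changed 200 rows and gave all rows of a strain the same spread, while the real fit of NCYC3290 called 1087 rows deleterious. Its shares therefore hold for that setting and are not recovery rates of the calls below.

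At Gen0 the RPL barcodes were about as abundant as others. Their median was 265.6 normalised reads in BY4743 against 227.2 for all rows, 255.7 against 224.1 in BC187, 244.3 against 225.0 in NCYC3290 and 216.7 against 229.0 in YPS128. Starting levels of single members were alike in BY4743 and NCYC3290, where the ratio ran from 0.789 to 1.12 over the 48 genes. They were not alike in BC187 and BY4743, where the ratio ran from 0.0579 (RPL31A) to 6.62 (RPL9B) and exceeded 2-fold either way for 16 genes. All changes below were therefore taken within a strain. The 24 genes with the lower Gen0 levels had median log2 fold changes of -0.14 (BY4743), -0.78 (BC187), -2.61 (NCYC3290) and -2.20 (YPS128). For the 24 with the higher levels they were -0.22, -0.13, -1.95 and -1.59 in the same order. Whether the starting level bears on the change was not tested.

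In each strain the RPL barcodes lay lower, as a list, than the library. In BC187 30 of the 48 were deleterious and 12 beneficial at a false discovery rate (FDR) under 0.05 by edgeR, against 38.1% and 28.5% of all rows. In BY4743 16 were deleterious and 6 beneficial, against 19.5% and 18.2%. In NCYC3290 17 were deleterious and 0 beneficial, against 26.1% and 1.89%, and in YPS128 15 and 0, against 8.47% and 4.11%. In percent of the 48 genes, the deleterious calls made up 62.5% in BC187, 33.3% in BY4743, 35.4% in NCYC3290 and 31.2% in YPS128. All 4 shares exceeded their backgrounds, by the smallest margin in NCYC3290. In 1 fit of all 24 libraries, which gives every strain the same spread, 0 RPL barcodes were called in BY4743, while BC187 had 7 deleterious ones (14.6%), NCYC3290 33 (68.8%) and YPS128 31 (64.6%). Of all rows, that fit called 1.64% (BY4743), 7.92% (BC187), 53.2% (NCYC3290) and 21.3% (YPS128) deleterious. In BY4743 26 were deleterious without Gen10 replicate 1, against 25.7% of all rows, and 1, 2 and 1 were beneficial without Gen0 replicates 1, 2 and 3, against 9.28%, 9.69% and 9.57%.

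The median log2 fold change of the list was -0.20 (BY4743), -0.55 (BC187), -2.31 (NCYC3290) and -2.11 (YPS128). Over all rows it was 0.01, -0.05, -1.58 and -0.56 in the same order, so the list lay 0.21, 0.50, 0.73 and 1.55 below the library on the log2 scale. Of the 48 genes, 44 lay below the library median in YPS128, 34 in BY4743, 33 in BC187 and 32 in NCYC3290. Below it in all 4 strains were 23 genes (47.9%), against 17.5% of the 4140 rows tested in every strain. RPL22B and RPL30 alone lay above it in all 4. The counts in the salt-sensitive strains depended on the scale and on single libraries. NCYC3290 had between 4 and 47 deleterious RPL barcodes over the scalings tried, where 7.33% and 89.3% of all rows were deleterious. That strain had 7, 8 and 8 without Gen0 replicates 1, 2 and 3 (14.6%, 16.7% and 16.7%), against 13.3%, 13.4% and 13.7% of all rows. It had 24, 20 and 27 without those of Gen10, against 36.4%, 37% and 45.4%, and 4 (8.33%) with TMM factors, against 7.33%. The share in NCYC3290 was thus near its background without a Gen0 library and with TMM factors. Without Gen10 replicates 1, 2 and 3 it was 50%, 41.7% and 56.2%, above backgrounds of 36.4%, 37% and 45.4%. It was 31.2% against 26.5% with the replicate number as a block, and 97.9% against 89.3% with the total over all rows. In YPS128 there were 35 without Gen10 replicate 2 (39.2% of all rows), 10 without Gen10 replicate 1 (5.75%), and 0, 2 and 2 without Gen0 replicates 1, 2 and 3 (0.0481%, 0.241% and 0.361%), while the distance of the list's median from the library stayed between 1.42 and 1.89.

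**Figure D1:**
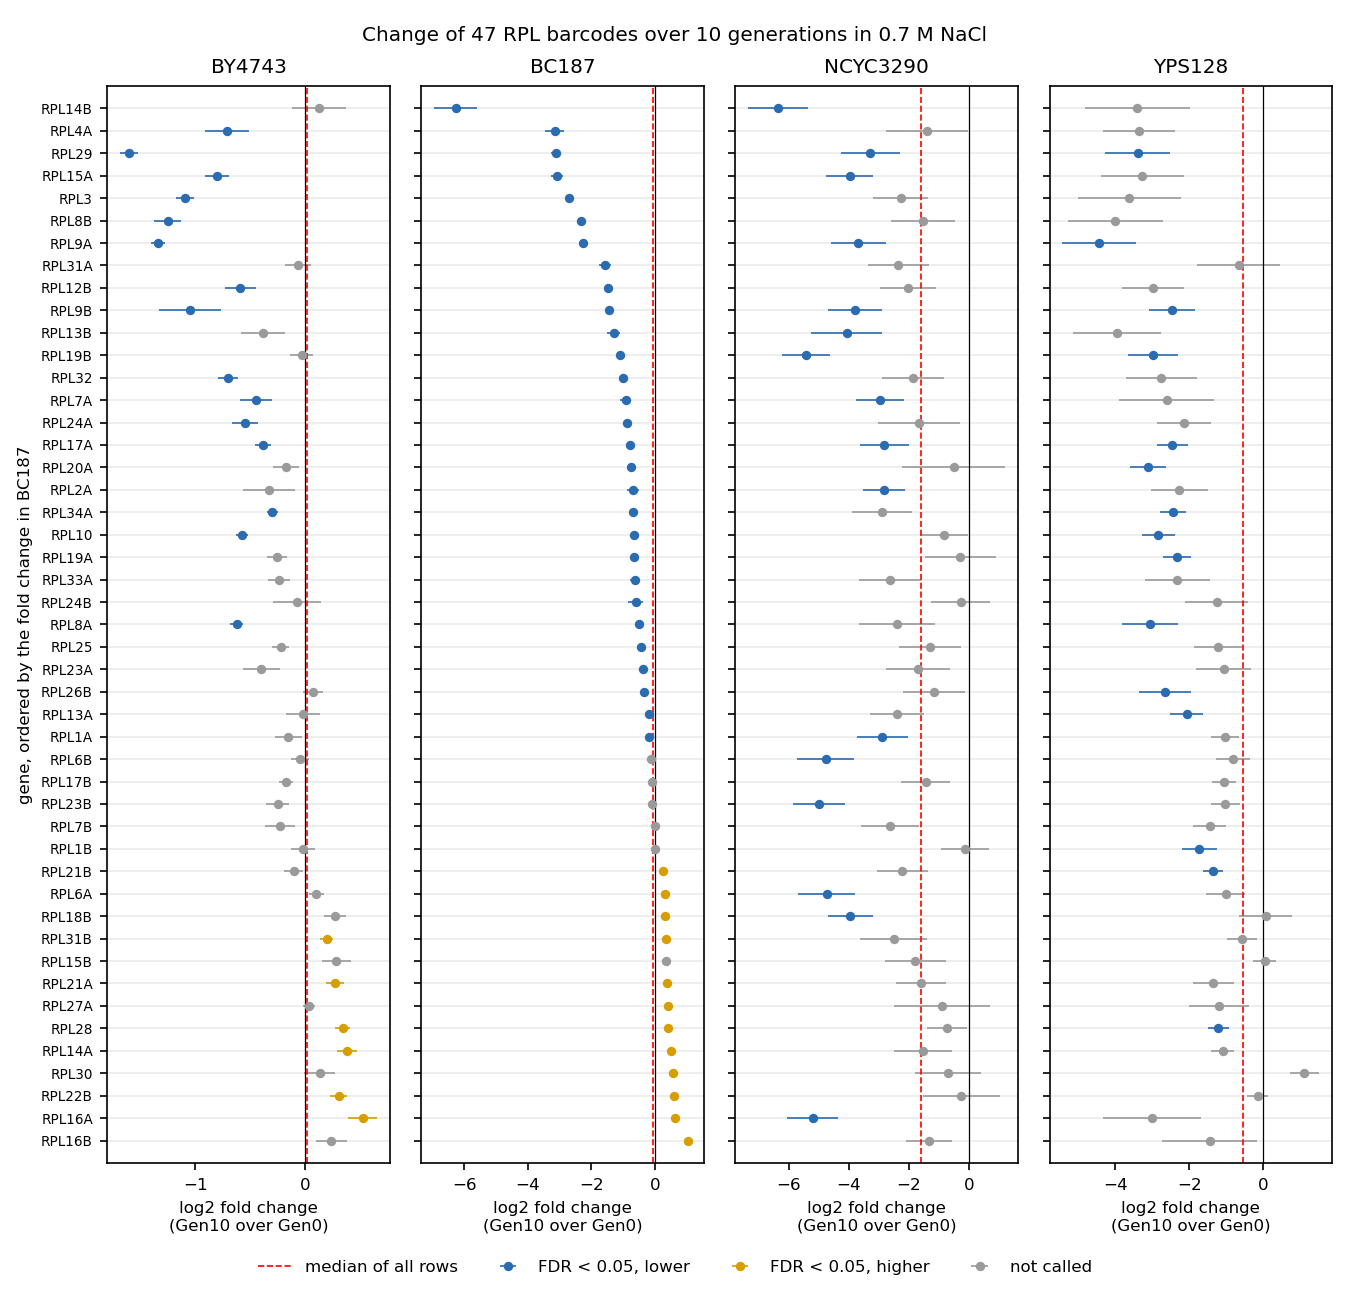
Log2 fold change (Gen10 over Gen0, x axis, scaled per strain) of 47 RPL barcodes, ordered by their value in BC187, with bars for the standard error and colours for calls at an FDR under 0.05. The dashed line is the median of all rows, at 0.01, -0.05, -1.58 and -0.56, and 43 of the 47 points lie left of it in YPS128.

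RPL9A, RPL9B, RPL17A and RPL29 were deleterious in every strain, as were 62 of the 4140 rows (1.5%). RPL29 (YFR032C-A) is a single-copy gene for a small protein that yeast can live without. In BY4743 its barcode went from 629.9, 658.0 and 646.5 normalised reads at Gen0 to 240.3, 206.0 and 193.5 at Gen10, a log2 fold change of -1.60 ± 0.08 (SE, n = 3; FDR = 1.22e-05 by edgeR). In BC187 it went from 184, 166 and 170 to 24.6, 17.1 and 18.7 (-3.10 ± 0.15, FDR = 5.00e-07 by edgeR). The Gen10 libraries lay far below those of Gen0 in both strains, and the difference, BC187 minus BY4743, was -1.5 ± 0.16 (FDR = 7.24e-06 by edgeR). In NCYC3290 it went from 611, 596 and 617 to 74.4, 106 and 8.03 (-3.29 ± 0.99, FDR = 0.0426 by edgeR). In YPS128 it went from 255, 174 and 170 to 5.95, 43.1 and 6.55 (-3.40 ± 0.88, FDR = 0.0430 by edgeR). The groups did not overlap in either strain, but 1 Gen10 library in each stood apart from the other 2. With any 1 library left out, the fold change of RPL29 stayed between -3.89 and -2.76 in NCYC3290 and between -5.00 and -2.98 in YPS128, and the FDR ranged from 0.00459 to 0.128 and from 0.000537 to 0.164. The call was lost without any 1 Gen0 library or Gen10 replicate 1 in NCYC3290, and in YPS128 in these cases and without Gen10 replicate 3.

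RPL9A (YGL147C) and RPL9B (YNL067W) encode near-identical copies of a 60S protein (97.91% identical), and RPL17A (YKL180W) a protein near the exit of the nascent peptide tunnel. RPL9A fell in BY4743 (-1.34 ± 0.07, FDR = 1.08e-05 by edgeR) and in BC187 (-2.26 ± 0.14, FDR = 1.61e-06), and so did RPL9B (-1.05 ± 0.28, FDR = 0.0219, and -1.45 ± 0.07, FDR = 4.30e-07). At Gen10 RPL9A had 107.3, 106.9 and 107.5 normalised reads in BY4743, down from 275, 264 and 274. RPL17A fell in BY4743 (-0.38 ± 0.07, FDR = 0.00545 by edgeR) and in BC187 (-0.78 ± 0.06, FDR = 5.87e-06), a fall of moderate size whose groups still did not overlap in any of the 4 strains. In the salt-sensitive strains the 3 genes had log2 fold changes from -4.44 to -2.46 (FDR from 0.0143 to 0.0402 by edgeR). The calls of RPL9A, RPL9B and RPL17A in both of these strains, and that of RPL9B in BY4743, were lost without any 1 Gen0 library. The FDR of RPL9B in BY4743 ranged from 0.00769 to 0.0809 over these fits, and every fold change kept its sign. RPL9A and RPL9B in YPS128 also lost their call without Gen10 replicate 1, and RPL17A in NCYC3290 without Gen10 replicate 2. The FDRs of the 3 genes with 1 library left out lay between 0.00255 and 0.146 in NCYC3290 and between 0.00133 and 0.133 in YPS128.

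Calls in BY4743 and BC187 were compared next. All 16 genes deleterious in BY4743 were so in BC187, all 6 beneficial in BY4743 were so in BC187 (RPL14A, RPL16A, RPL21A, RPL22B, RPL28 and RPL31B), and 0 genes were called in opposite directions. Of all rows, 79.9% of those deleterious in BY4743 were so in BC187 and 49.5% of those beneficial in BY4743 were so in BC187, while 7.54% and 15.6% were called the opposite way. These 2 strains share no library. The lowest called values in BY4743 were those of RPL29, RPL9A and RPL8B, which fell by 1.25 ± 0.12 (FDR = 0.000275 by edgeR). In BC187 they were those of RPL14B (-6.27 ± 0.68, FDR = 5.76e-05), RPL4A (-3.16 ± 0.31, FDR = 3.11e-05) and RPL29. RPL4A encodes a protein that reaches into the peptide tunnel, and its barcode went from 22.0, 27.3 and 26.2 normalised reads to 4.18, 2.31 and 1.86. The 3 highest called rises in BC187 were RPL16B (1.04 ± 0.11, FDR = 3.68e-05 by edgeR), RPL16A (0.64 ± 0.11, FDR = 0.00107) and RPL22B (0.60 ± 0.05, FDR = 1.01e-05). In BY4743 they were RPL16A (0.52 ± 0.13, FDR = 0.0180 by edgeR), RPL14A (0.38 ± 0.09, FDR = 0.0138) and RPL28 (0.34 ± 0.07, FDR = 0.00746). The call of RPL16A in BY4743 was lost without any 1 Gen0 library and that of RPL14A without Gen0 replicate 1 or 3. Over all 6 such fits the FDR of RPL16A was between 0.00853 and 0.0808 and that of RPL14A between 0.00799 and 0.0605.

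Among the single-copy genes, RPL3 (YOR063W) encodes a protein that reaches to the peptidyl transferase centre. Its barcode went from 225, 240 and 284 normalised reads to 36.9, 39.9 and 38.1 in BC187 (-2.71 ± 0.11, FDR = 2.08e-07 by edgeR) and fell by 1.09 ± 0.08 in BY4743 (FDR = 8.14e-05). In the salt-sensitive strains it was not called, with -2.27 ± 0.92 in NCYC3290 (FDR = 0.111 by edgeR) and -3.62 ± 1.39 in YPS128 (FDR = 0.108), where Gen10 replicate 3 had 0 reads and replicate 2 had 29.3 normalised reads. With 1 library left out RPL3 was called in both, at -1.77 without Gen10 replicate 1 in NCYC3290 (FDR = 0.0219 by edgeR, the highest of the 6 such fits being 0.302) and at -6.73 without Gen10 replicate 2 in YPS128 (FDR = 0.00163, the highest being 0.256). RPL10 (YLR075W), whose protein joins late, in the cytoplasm, fell in BY4743 (-0.57 ± 0.05, FDR = 0.00023 by edgeR), BC187 (-0.66 ± 0.07, FDR = 4.39e-05) and YPS128 (-2.84 ± 0.44, FDR = 0.0119). Without Gen0 replicate 1 its call in YPS128 was lost (FDR = 0.0681 by edgeR, the highest over the 6 such fits, the lowest being 0.00136). RPL32, which encodes a conserved 60S protein, fell in BY4743 (-0.70 ± 0.09, FDR = 0.00095 by edgeR) and in BC187 (-0.99 ± 0.08, FDR = 7.96e-06). RPL25, whose protein sits beside the tunnel exit, fell by 0.44 ± 0.08 in BC187 (FDR = 0.000979 by edgeR) and was not called in BY4743 (-0.22 ± 0.08, FDR = 0.0587), except without Gen10 replicate 1 (-0.30, FDR = 0.00195).

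RPL28 and RPL30 went the other way in BC187. RPL28 (YGL103W) encodes the protein altered in classical cycloheximide-resistant mutants. Its barcode went from 532, 539 and 523 normalised reads to 745, 636 and 639 in BY4743, and from 491, 485 and 455 to 580.0, 680 and 670 in BC187 (0.43 ± 0.07, FDR = 0.000554 by edgeR). Every Gen10 library of these 2 strains lay above every Gen0 library. In YPS128 it instead fell by 1.22 ± 0.28 (FDR = 0.0319 by edgeR), from 672, 444 and 492 to 274, 254 and 165. Set against the library median of YPS128 this was -0.66, and the call was lost under TMM factors (-0.60, FDR = 0.172) and DESeq2 (-0.59, FDR = 0.184), as well as without any 1 Gen0 library or Gen10 replicate 1 (FDR up to 0.136 by edgeR, the lowest of the 6 such fits being 0.0178).

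RPL30 (YGL030W) encodes a protein that binds its own transcript and represses its splicing. Its barcode rose in BC187 from 361, 365 and 330 normalised reads to 501, 580 and 493 (0.58 ± 0.07, FDR = 0.000145 by edgeR). It was not called in BY4743 (0.13 ± 0.14, FDR = 0.493 by edgeR) or NCYC3290 (-0.70 ± 1.11, FDR = 0.676). In YPS128 it had 708, 224 and 566 normalised reads at Gen10 against 242, 240 and 209 at Gen0, the highest of the 48 in that strain (1.11 ± 0.40, FDR = 0.0926 by edgeR). Gen10 replicate 2 lay within the Gen0 range, and the other 2 Gen10 libraries lay above it. Without replicate 2 it was called (1.47, FDR = 0.00213 by edgeR). Scaled to the total over all rows it was called deleterious instead (-2.19, FDR = 0.00162 by edgeR), as were 93.5% of all rows in that strain. RPL5, the eighth single-copy gene, had no row.

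**Figure D2:**
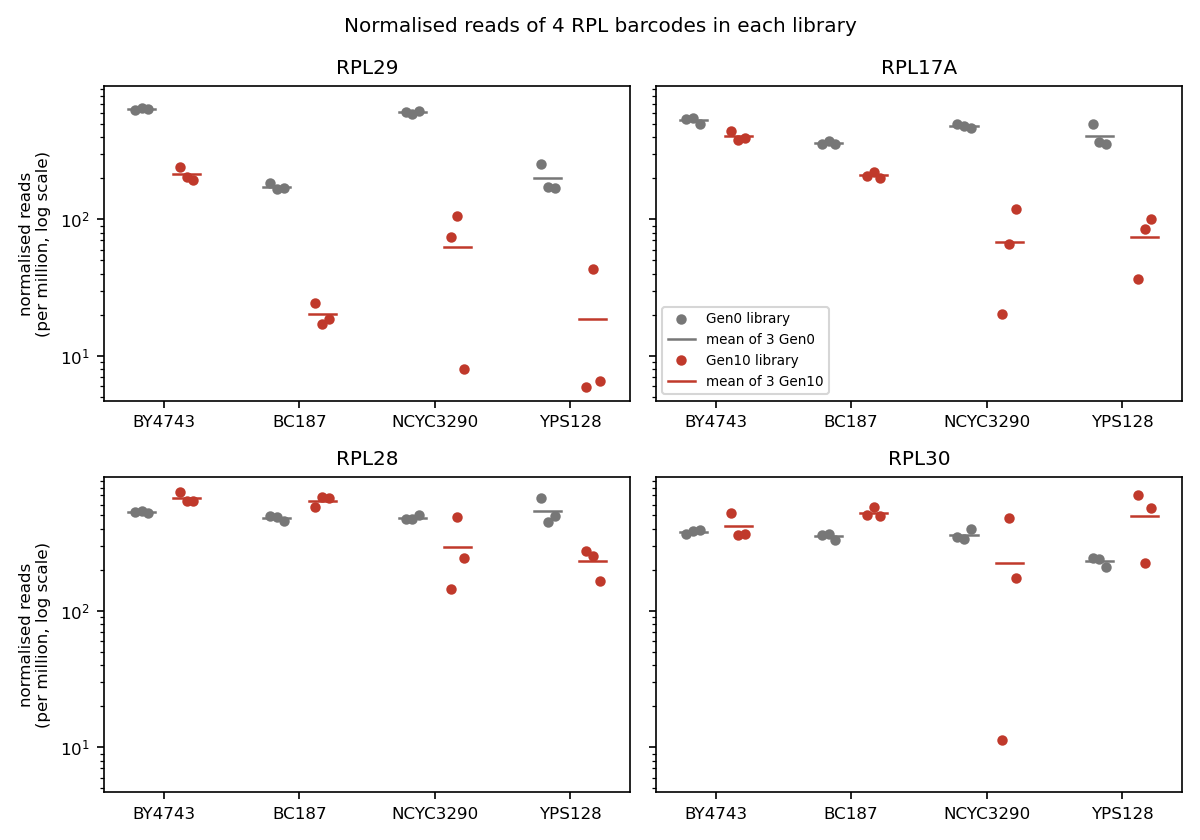
Normalised reads per 1000000 (log axis) of RPL29, RPL17A, RPL28 and RPL30 in each of the 24 libraries, Gen0 in grey and Gen10 in red, with lines at the means of 3. RPL29 falls in every strain, from 645 to 213 in BY4743 and from 173 to 20.1 in BC187 on average, while RPL30 in YPS128 averages 230.4 at Gen0 and 499 at Gen10 with 1 low library.

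As lists, single-copy and paired genes did not hold the same order in all strains. In BY4743 4 of 7 single-copy and 12 of 41 paired genes were deleterious, with median log2 fold changes of -0.57 and -0.17. In BC187 5 of 7 and 25 of 41 were (-0.66 and -0.50), in NCYC3290 1 of 7 and 16 of 41 (-1.30 and -2.40) and in YPS128 3 of 7 and 12 of 41 (-2.75 and -2.08). The deleterious share was 57.1%, 71.4%, 14.3% and 42.9% for single-copy genes in BY4743, BC187, NCYC3290 and YPS128. For paired genes it was 29.3%, 61%, 39% and 29.3%, against 19.5%, 38.1%, 26.1% and 8.47% of all rows. In NCYC3290 the single-copy share lay below that of all rows, and the single-copy median lay 0.29 above the library median. The single-copy genes were thus the lower group in 3 strains and the higher in NCYC3290, and with 7 genes these medians are descriptions.

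The 16 pairs with both genes measured allow a comparison that needs no scaling, since both barcodes were read in the same library. The measure was the log2 ratio of A to B (reads plus 0.5), compared between Gen10 and Gen0 over the 4 strains by an exact two-sided permutation of generation labels within strains. There are 160000 such assignments, so 1.25e-05 is the smallest p they can give, and p-values were adjusted over the 16 pairs, of which 15 are reported. Within 1 strain, 3 libraries against 3 cannot go below 0.1. The ratio changed for 7 of these 15 pairs at an adjusted p under 0.05. A fell relative to B in RPL7, RPL15, RPL16 and RPL17, and B relative to A in RPL13, RPL14 and RPL19. RPL13, RPL14, RPL15 and RPL17 kept the sign of the change in all 4 strains.

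RPL15, a protein embedded in the ribosomal RNA, had A as the relatively lower copy. The log2 ratio of A to B was 0.18, 0.41 and 0.23 at Gen0 and -0.61, -0.96 and -0.85 at Gen10 in BY4743, and -1.18, -1.60 and -1.54 against -4.57, -5.05 and -5.14 in BC187. It changed by -1.08 ± 0.12, -3.48 ± 0.22, -1.51 ± 0.93 and -3.93 ± 1.27 in BY4743, BC187, NCYC3290 and YPS128 (SE, n = 3), and by -2.50 on average (exact permutation p = 5.00e-05, adjusted p = 0.0002). In NCYC3290 alone the 2 generations overlapped. RPL15A (YLR029C) fell by 3.08 ± 0.20 in BC187 (FDR = 2.17e-06 by edgeR), and RPL15B (YMR121C) was not called in any strain, with log2 fold changes of 0.28, 0.37, -1.78 and 0.03. With 1 library left out RPL15B was called in BY4743 (0.41 without Gen10 replicate 1, FDR = 0.00928 by edgeR), BC187 (0.57 without Gen0 replicate 3, FDR = 0.00107) and NCYC3290 (-3.31 without Gen10 replicate 3, FDR = 0.0222).

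RPL14 had the largest mean change, in the other direction, and its size rested on few reads. RPL14B (YHL001W) fell in BC187 from 50, 184 and 165 reads to 4, 0 and 0, and in NCYC3290 from 751, 935 and 480 reads to 0, 0 and 2 (-6.35 ± 1.00, FDR = 0.00634 by edgeR). In NCYC3290 the pooled reads were 76.9-fold lower (95% counting interval 21.2 to 635). In BY4743 it had 45.6, 81.7 and 45.3 normalised reads against 51.3, 53.4 and 53.6 at Gen0 (0.12 ± 0.24, FDR = 0.726 by edgeR). RPL14A (YKL006W) rose in BC187 by 0.50 ± 0.07 (FDR = 0.000303 by edgeR). The log2 ratio of A to B rose by 0.31 ± 0.19, 7.16 ± 1.00, 3.45 ± 0.64 and 3.42 ± 1.12 in the 4 strains, by 3.59 on average (exact permutation p = 3.75e-05, adjusted p = 0.0002). With 5 reads added in place of 0.5 the mean change was 1.75 (exact permutation, adjusted p = 0.00370). RPL14B also began at only 7.18 ± 2.08 normalised reads in BC187 (SD, n = 3), against 52.8 ± 1.3 in BY4743.

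RPL13 rose in its A to B ratio by 0.36 ± 0.03, 1.09 ± 0.18, 1.68 ± 0.47 and 2.47 ± 0.92 in the 4 strains (BY4743, BC187, NCYC3290 and YPS128), with no overlap between generations in any strain (mean 1.40, exact permutation p = 1.25e-05, adjusted p = 0.0001). With 5 reads added the mean was 0.58 (exact permutation, adjusted p = 0.00370). RPL13B, the relatively lower copy, had 0, 4 and 2 reads at Gen10 in NCYC3290 and fell by 1.29 ± 0.20 in BC187 (FDR = 0.000594 by edgeR). The ratio of RPL17A to RPL17B changed by -0.92 on average (exact permutation p = 0.000425, adjusted p = 0.00136). RPL16 did not run the same way everywhere. Its ratio changed by 0.30 ± 0.28, -0.40 ± 0.13, -3.52 ± 0.99 and -1.26 ± 1.23 in the same order (mean -1.22, exact permutation p = 0.0183, adjusted p = 0.0367). Its adjusted p was 0.0929 with 5 reads added, 0.830 in BY4743 and BC187 alone (mean -0.05), and 0.0282, 0.227 and 0.301 without replicates 1, 2 and 3 (means -1.67, -1.35 and -0.64), all by exact permutation. Both RPL16 genes rose in BC187, while RPL16A fell by 5.21 ± 0.86 in NCYC3290 (FDR = 0.00653 by edgeR).

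**Figure D3:**
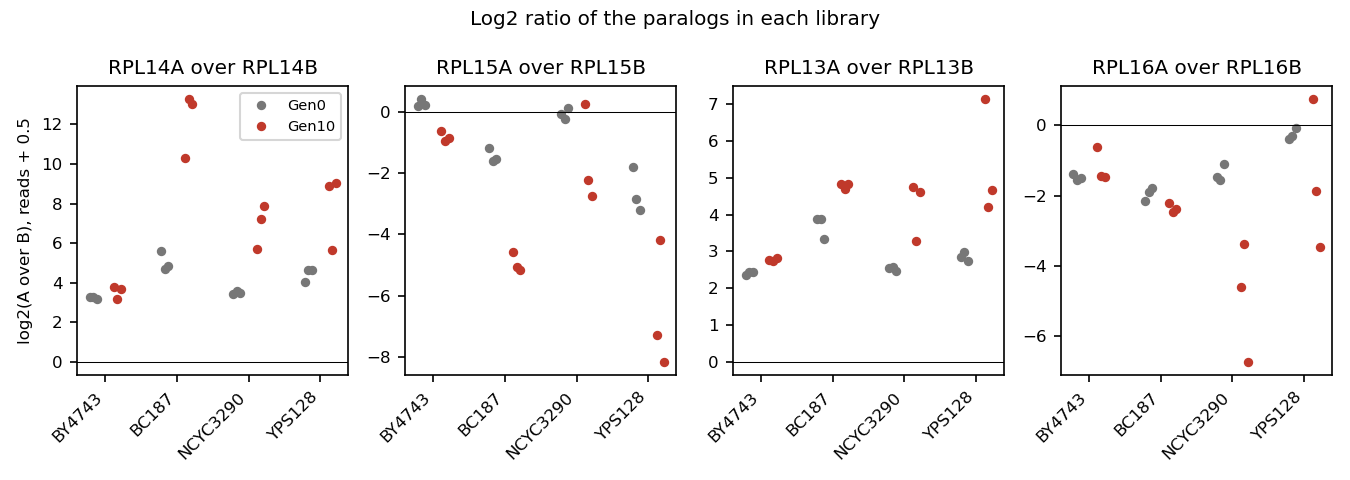
Log2 ratio of paralog A to paralog B (reads plus 0.5, y axis) in each library for RPL14, RPL15, RPL13 and RPL16, Gen0 in grey and Gen10 in red. RPL15 moves down and RPL14 and RPL13 up in every strain, with the generations overlapping for RPL14 in BY4743 and RPL15 in NCYC3290, while the mean of RPL16 moves up in BY4743 and down in the other strains, with overlap in BY4743 and YPS128.

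Of 3 pairs with identical proteins (RPL1, RPL19 and RPL23), the ratio changed over the 4 strains for 1, RPL19, and in BY4743 and BC187 alone for 1, RPL1 (mean -0.17, exact permutation, adjusted p = 0.0229). RPL19, whose protein forms a bridge to the small subunit, changed by 1.18 on average (exact permutation p = 0.00425, adjusted p = 0.0113). The largest part came from NCYC3290, at 3.47 ± 1.96, where RPL19B had only 4, 1 and 2 reads at Gen10. YPS128 had 1.05 ± 0.70, BC187 0.44 ± 0.04 and BY4743 -0.23 ± 0.13. With only BY4743 and BC187 the mean was 0.11 (exact permutation, adjusted p = 0.432). Over the 4 strains the adjusted p was 0.0875 with 5 reads added and 0.0525 without replicate 1. RPL7, with a mean of -0.88 (exact permutation, adjusted p = 0.0207), was past the threshold neither with 5 reads added (0.0936) nor without replicate 1 (0.0905) or 3 (0.301). RPL1 (mean -0.59) and RPL23 (mean 0.41) had adjusted p-values of 0.258 and 0.559 by exact permutation, with changes of different sign between strains. Of the 8 pairs that missed the threshold over the 4 strains, RPL1, RPL6, RPL8, RPL9, RPL21 and RPL31 passed it in BY4743 and BC187 alone, with mean changes from -1.10 (RPL31) to 1.22 (RPL8) and adjusted p-values from 0.016 to 0.0333 by exact permutation. RPL9 also passed with 5 reads added (0.00170) and without replicate 2 (0.00617), RPL8 without replicate 3 (0.00823) and RPL24 without replicate 1 (0.0282). The standard errors of up to 2.33 in NCYC3290 leave room for sizeable changes that the test did not call. In BC187, 2 pairs had 1 gene deleterious and the other beneficial (RPL14 and RPL31), 5 had both deleterious (RPL8, RPL9, RPL13, RPL19 and RPL24) and 2 both beneficial (RPL16 and RPL21). In BY4743 2 pairs had both deleterious (RPL8 and RPL9), 0 had both beneficial and 0 had opposite calls. Calls were more frequent in BC187 among all rows too, with 38.1% deleterious and 28.5% beneficial, against 19.5% and 18.2% in BY4743. These pair counts are therefore descriptions and are not read as a difference between the strains.

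**Figure D4:**
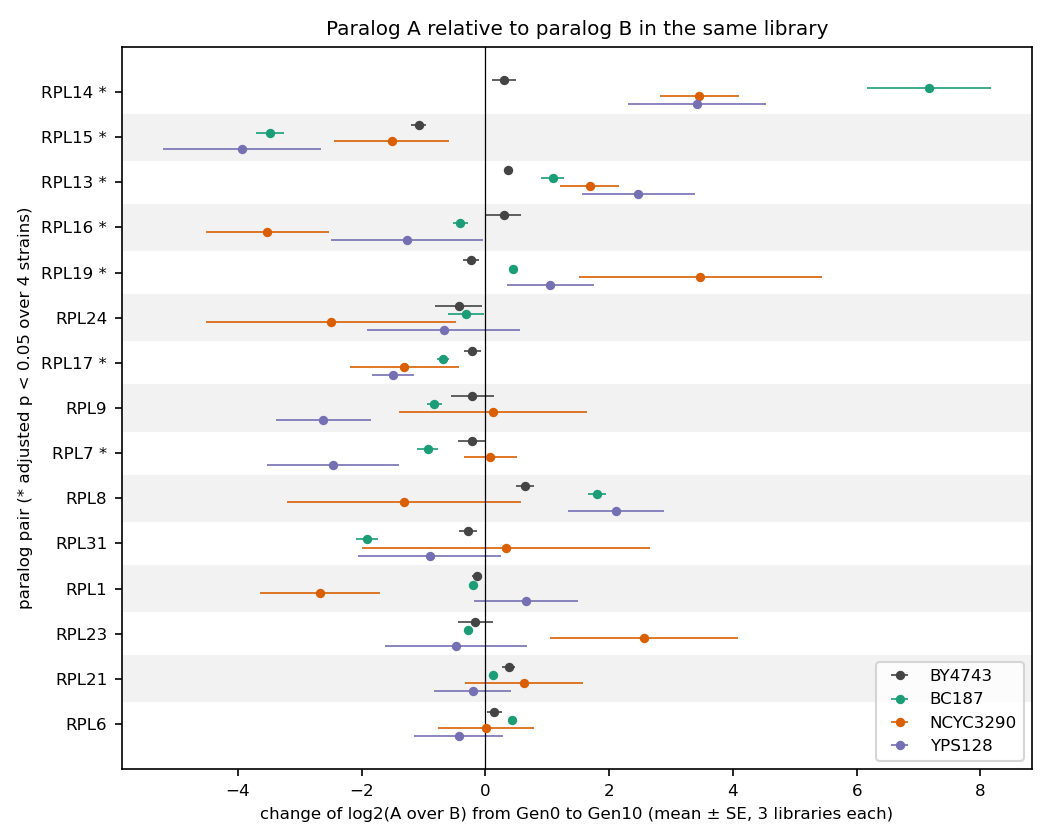
Change of the log2 ratio of A to B from Gen0 to Gen10 (x axis, mean difference ± SE from 3 libraries per generation) for 15 pairs in 4 strains, ordered by the absolute mean over strains. The 7 starred pairs had an adjusted p under 0.05, and RPL14 in BC187 lies furthest out at 7.16.

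Strains differed in the size of the change for some members, at shares near those of all rows. In 1 fit of all 24 libraries, 24 of the 48 genes had a strain-by-generation difference at an FDR under 0.05, against 41.3% of all rows. With TMM factors there were 11, and with the library size over all rows 48. The share of all rows under these settings is not given, so these counts are not read as a result about the members. Between the salt-tolerant strains, the change was lower in BC187 than in BY4743 for 17 genes and higher for 6, against 29.2% and 15.5% of all rows. The lower ones were led by RPL14B (difference -6.38 ± 0.71, FDR = 1.13e-05 by edgeR), RPL4A (-2.44 ± 0.37, FDR = 0.000160), RPL15A (-2.27 ± 0.23, FDR = 3.92e-06) and RPL3 (-1.62 ± 0.14, FDR = 1.23e-06). RPL31A, whose protein lies at the tunnel exit, differed by -1.48 ± 0.19 (FDR = 3.63e-05) and started at 30.7 normalised reads in BC187 against 531 in BY4743. The higher ones were RPL16B (0.81 ± 0.19, FDR = 0.00356), RPL30, RPL27A, RPL21B, RPL22B and RPL6A (0.21 ± 0.08, FDR = 0.0485).

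Between the salt-sensitive strains, the change was higher in YPS128 than in NCYC3290 for 5 genes, against 11% of all rows, and lower for 0, against 1.12%. They included RPL18B, RPL23B, RPL6B and RPL6A, with differences from 3.74 ± 1.05 to 4.02 ± 1.12 (FDR from 0.0118 to 0.0352 by edgeR). RPL18B (YNL301C) fell in NCYC3290 (-3.95 ± 0.74, FDR = 0.008 by edgeR) to 7, 6 and 13 reads and was not called in YPS128 (0.06 ± 0.72, FDR = 0.957). Its call in NCYC3290 was lost without Gen0 replicate 1 (FDR = 0.0512 by edgeR, the highest of the 6 such fits, the lowest being 0.0024). In BC187 its barcode instead rose, from 276, 270 and 258 normalised reads to 354, 343 and 310 (0.33 ± 0.06, FDR = 0.00197 by edgeR), with every Gen10 library above every Gen0 library. RPL6A and RPL6B, both copies of 1 pair, had 6.76, 19.95 and 3.21 and 10.5, 3.99 and 1.61 normalised reads at Gen10 in NCYC3290, down from means of 251 and 148. In YPS128 they had 67.8, 195 and 57.2 and 93.9, 61.5 and 75.04, and in BC187 RPL6A rose by 0.31 ± 0.05 (FDR = 0.000472 by edgeR). The count of 5 was 2, 3 and 0 without replicates 1, 2 and 3, 0 with TMM factors and 7 by DESeq2. Without replicate 2 the count of 23 between BC187 and BY4743 was 15. Among the lowest called values in NCYC3290 were RPL14B and RPL19B (-5.42 ± 0.80, FDR = 0.00634 by edgeR). In YPS128 they were RPL9A (-4.44 ± 0.99, FDR = 0.0295 by edgeR), RPL29 and RPL20A (-3.11 ± 0.48, FDR = 0.0119), the last with calls lost without any 1 Gen0 library (FDR up to 0.0888, the lowest of the 6 such fits being 0.00126).

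The members without an intron in their coding sequence lay lower than those with one in 3 of the 4 strains, a split made after the values were seen and given with no test. In BY4743 12 of 16 genes without and 4 of 32 with a coding intron were deleterious (medians -0.66 and -0.06), and 0 and 6 beneficial. In BC187 14 of 16 and 16 of 32 were deleterious (-1.22 and -0.14), with 0 and 12 beneficial. In YPS128 6 of 16 and 9 of 32 were deleterious (-2.91 and -1.41). In NCYC3290 the order was the reverse, with medians of -1.95 without and -2.45 with a coding intron and 5 of 16 and 12 of 32 deleterious. The deleterious shares were 75% without and 12.5% with a coding intron in BY4743, against 19.5% of all rows. They were 87.5% and 50% in BC187 against 38.1%, 37.5% and 28.1% in YPS128 against 8.47%, and 31.2% and 37.5% in NCYC3290 against 26.1%. Beneficial genes with a coding intron made up 18.8% in BY4743 and 37.5% in BC187, against 18.2% and 28.5% of all rows. The intron-free genes were RPL1A, RPL1B, RPL3, RPL4A, RPL8A, RPL8B, RPL9A, RPL9B, RPL10, RPL12B, RPL15A, RPL15B, RPL24A, RPL24B, RPL29 and RPL32. They include pairs with both copies, so they are not independent of each other.

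**Figure D5:**
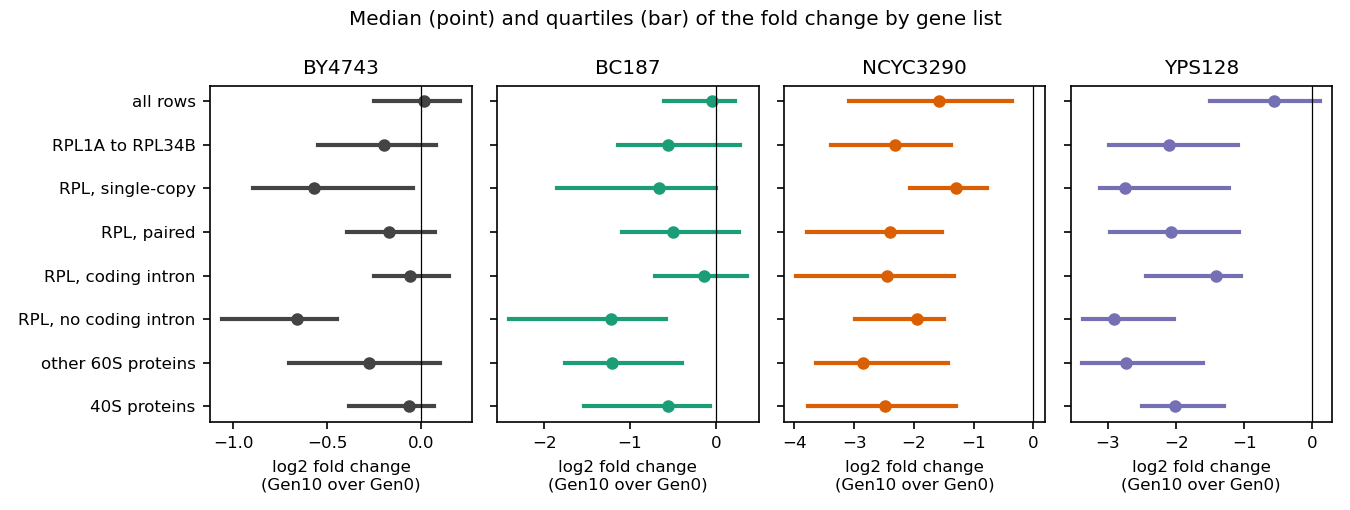
Median (point) and quartiles (bar) of the log2 fold change (x axis, scaled per strain) for all rows, the RPL genes and their subsets, the other 60S proteins and the 40S proteins. RPL genes without a coding intron have medians of -0.66, -1.22, -1.95 and -2.91 in BY4743, BC187, NCYC3290 and YPS128, and those with one -0.06, -0.14, -2.45 and -1.41.

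Other genes of the same pathway were counted from lists. Of all rows, 38.1% were deleterious and 28.5% beneficial in BC187, 19.5% and 18.2% in BY4743, 26.1% and 1.89% in NCYC3290 and 8.47% and 4.11% in YPS128. Of 18 other 60S proteins tested (RPL35A to RPL43B and the stalk), 15 were deleterious and 0 beneficial in BC187 and 8 and 2 in BY4743, with RPP0, the single-copy stalk protein P0, lowest in BC187 (-5.60 ± 0.26, FDR = 4.00e-07 by edgeR). In NCYC3290 6 of the 18 were deleterious and 0 beneficial, and in YPS128 9 and 0. Of 51 proteins of the small (40S) subunit, 35 were deleterious and 8 beneficial in BC187 and 19 and 7 in BY4743. In NCYC3290 18 of the 51 were deleterious and 0 beneficial, and in YPS128 10 and 0. The 40S proteins ran from RPS0A (-6.85 ± 0.48, FDR = 3.86e-06 by edgeR) to RPS1B (1.18 ± 0.08, FDR = 4.52e-06) in BC187. Factors that assemble the 60S subunit showed another pattern in BC187, where 7 of 23 were deleterious and 10 beneficial (median 0.13, against -0.05 for all rows). Their lowest was NSA2 (-2.24 ± 0.11, FDR = 4.77e-07 by edgeR) and their highest SSF1 (1.61 ± 0.07, FDR = 3.07e-07). Of the dedicated chaperones that escort single 60S proteins, 2 were tested and both rose in BC187, SQT1, the partner of Rpl10, by 0.61 ± 0.06 (FDR = 3.53e-05 by edgeR). Neither chaperone was called in BY4743, NCYC3290 or YPS128. Among 7 regulators of ribosomal protein genes, 4 were deleterious and 1 beneficial in BC187, with the activator SFP1 lowest (-2.84 ± 0.21, FDR = 4.83e-06 by edgeR) and CRF1 highest (0.12 ± 0.04, FDR = 0.0293). The counts were 3 and 1 in BY4743, 2 and 0 in NCYC3290 and 3 and 0 in YPS128.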

How the data were processed

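Plasmids were isolated from 24 libraries (4 strains, Gen0 and Gen10, 3 biological replicates) and their barcodes amplified by PCR and sequenced. The authors deposited raw read counts per barcode with no normalisation. The tool that assigned reads to barcodes is not given in the sources used here. No molecular identifiers were used, so intervals cover counting error only. Barcodes, not gene sequences, were counted, so paralogs are told apart. Groups and replicate numbers came from the sample titles, and 0 columns lacked a sample.

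The library size was the total over rows above 50000 reads in no library, which left 25 of 4871 rows out of the total but not out of the tests. Counts were fitted within each strain with edgeR 4.0.16 (R 4.3.3, limma 3.58.1) by its quasi-likelihood F test after filterByExpr (minimum count 10). The p-values were adjusted over all rows tested by Benjamini-Hochberg (FDR, called under 0.05), and SE is the absolute log2 fold change over the square root of F. Differences between strains were interaction terms of fits of 24 or 12 libraries. Pair ratios and exact permutations used Python 3.11.15 (numpy 2.4.6, pandas 2.3.3, scipy 1.17.1). Pairs needed at least 10 reads in every Gen0 library. The fits were tested on simulated counts with 200 changed rows. Alternatives were the total over all rows, TMM factors, DESeq2 1.42.0, no filter, a joint fit, a replicate block and each library left out. For strain differences and pairs, all libraries of 1 replicate number were left out together. Sequences and coding exons came from RefSeq (R64), which matched all 60 members.

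Named genes were the 8 single-copy genes, the 3 lowest and 3 highest called members in each strain, the 5 pairs with the largest mean change, members called alike in all 4 strains and, for each other list, the lowest and highest called gene in BC187. Other genes named, such as RPL6A, RPL6B, RPL7, RPL19 and RPL31A, were chosen after their values were seen. The members and lists were chosen with earlier results of these data known. Results of 1 member, which stayed in the fits, the counts and the adjustment over pairs, are not reported here.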

Additional observations from a re-analysis of the deposited data

Results flagged for a closer look

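The change from Gen0 to Gen10 differed between BC187 and BY4743 for 14 of the genes that the naming rule chose, by the interaction term of the edgeR fit at an FDR under 0.05. Of all rows, 29.2% were lower and 15.5% higher in BC187 by that test. The rule picked many of its genes by their fold changes in these same strains, so the count of 14 is not comparable with those shares. Given as BC187 minus BY4743 on the log2 scale, the change was lower for RPL14B (-6.38), RPL4A (-2.44), RPL15A (-2.27), RPL3 (-1.62), RPL29 (-1.5), RPL19B (-1.06), RPL8B (-1.06), RPL9A (-0.92), RPL13B (-0.91), RPL20A (-0.57) and RPL17A (-0.40). It was higher for RPL16B (0.81), RPL30 (0.45) and RPL22B (0.30). By the same test, the calls of RPL22B and RPL30 were lost without replicate 2 or 3, those of RPL17A, RPL20A and RPL16B without replicate 3, and that of RPL13B without any 1 replicate, with TMM factors and under the replicate block. That of RPL30 was also lost with the total over all rows. Plasmid copy number differs between these strains in the work the study cites, and the strain and its copy number cannot be told apart here. RPL14B and RPL4A began in BC187 at 7.18 and 25.15 normalised reads, against 52.76 and 90.67 in BY4743.

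Between the salt-sensitive strains the change differed for RPL18B, by the same kind of test. Given as YPS128 minus NCYC3290, the difference was 4.02 (FDR = 0.0340 by edgeR). The call was lost with TMM factors (2.94, FDR = 0.158), under the replicate block (3.48, FDR = 0.169) and without replicates 1, 2 and 3 (4.05, 4.82 and 2.61, FDR = 0.119, 0.0537 and 0.134). At Gen10, RPL18B had at most 13 reads in a library of NCYC3290.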

How the results depend on the processing

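The scale mattered most in the salt-sensitive strains, where TMM factors moved the median of all rows by 2.06 in NCYC3290 and 0.62 in YPS128, and the total over all rows moved it by -3.78 and -3.09. Deleterious RPL barcodes numbered 47 with that total, 4 with TMM, 11 by DESeq2 and 33 in the joint fit in NCYC3290, and 47, 9, 22 and 31 in YPS128. Of all rows, 89.3%, 7.33%, 16.1% and 53.2% were deleterious in these fits of NCYC3290, and 93.5%, 4.72%, 13.4% and 21.3% in those of YPS128. Beneficial RPL barcodes numbered 3 by DESeq2 in NCYC3290, against 22.1% of all rows. In YPS128 they numbered 1 with TMM and 1 by DESeq2, against 10.3% and 16.7%. In the joint fit, 0 were deleterious and 0 beneficial in BY4743, against 1.64% and 0.0237% of all rows, and 7 and 0 in BC187, against 7.92% and 1.14%. Strain-by-generation differences over the 4 strains numbered 48 with the total over all rows and 11 with TMM, and those between YPS128 and NCYC3290 numbered 0 with TMM. No share of all rows is given for these differences. Without the filter, the RPL median lay -0.55 from that of all rows in BC187.

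Several values that were not called changed sign. In NCYC3290, with TMM and by DESeq2, the log2 fold change was 1.24 and 1.43 for RPL10, 0.48 and 0.57 for RPL14A, 0.25 and 0.32 for RPL15B, 0.77 and 1.19 for RPL16B, 0.89 and 1.62 for RPL25, 1.28 and 1.60 for RPL28, 1.24 and 1.45 for RPL30, and 0.17 and 0.23 for RPL32. Of these only RPL28 by DESeq2 was called (FDR = 0.03). In YPS128, with the total over all rows, it was -3.18 for RPL15B, -3.33 for RPL18B and -2.19 for RPL30. These genes were then called deleterious (FDR = 0.000527, 0.00422 and 0.00162 by edgeR), as were 93.5% of all rows with that total. With 1 library left out, the log2 fold change was 0.11 and 0.03 for RPL13A (Gen10 replicates 2 and 3), -0.22 for RPL14B (Gen10 replicate 2, highest over such fits 0.27) and -0.066 for RPL30 (Gen10 replicate 1, highest 0.23) in BY4743. In YPS128 it was -0.083, -0.063 and -0.074 for RPL15B (Gen0 replicate 1, Gen10 replicates 1 and 3, highest 0.22), and -0.011 and -1.33 for RPL18B (Gen0 replicate 1, Gen10 replicate 3, highest 0.45). The cause of these changes was not tested.

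With each library left out in turn, deleterious RPL barcodes numbered 11 to 26 in BY4743, 27 to 29 in BC187, 7 to 27 in NCYC3290 and 0 to 35 in YPS128, and beneficial ones 1 to 9, 12 to 13, 0 to 0 and 0 to 1. The shares of all rows moved too. Deleterious rows made up 12.5% to 25.7%, 34.1% to 37.4%, 13.3% to 45.4% and 0.0481% to 39.2% in the same order. Beneficial rows made up 9.28% to 26.8%, 23.3% to 27.4%, 0.651% to 3.6% and 0.962% to 8.98%. The RPL median minus that of all rows was -0.25 to -0.18, -0.50 to -0.45, -0.77 to -0.37 and -1.89 to -1.42. The single-copy minus the paired median was -0.43 to -0.35, -0.34 to -0.065, 1.01 to 1.28 and -0.89 to -0.23. For strain differences and pairs, all libraries of 1 replicate number were left out together instead. Strain-by-generation differences then numbered 20 to 23 over the 4 strains. They numbered 15 to 24 between BC187 and BY4743 and 0 to 3 between YPS128 and NCYC3290. Pairs with a changed ratio numbered 6 to 7 in this way, and 11 in BY4743 and BC187 alone with every replicate kept.

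Samples with the same replicate number did not deviate together (correlations from -0.417 to 0.117, and 2 of 12 best with their own number), so the numbers were not taken to pair the samples. With the replicate number as a block, deleterious and beneficial RPL barcodes numbered 16 and 4 (BY4743), 28 and 13 (BC187), 15 and 0 (NCYC3290) and 19 and 0 (YPS128). Of all rows, the block fit called 17.3% and 14.2%, 36.5% and 26.4%, 26.5% and 1.2%, and 13.3% and 3.92% in the same order. Under the block, differences numbered 22 over the 4 strains, 20 between BC187 and BY4743 and 0 between YPS128 and NCYC3290, 5 pairs were called, and RPL18B in YPS128 was at -0.51.

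Depth limits NCYC3290 most, where the median RPL barcode had 16.5 reads at Gen10, and a change missed there is not shown to be absent.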
